A study of Sus scrofa with 32 samples.

Results

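The genes described here are INSL3 and LHCGR, a secreted hormone of the Leydig cell and the receptor through which that cell is driven, whose transcripts were sequenced from the testes of 32 boars. They were chosen by name, from their Ensembl identifiers matched to symbols (INSL3 is ENSSSCG00000013887 and LHCGR is ENSSSCG00000008421), and are 2 of 25322 gene identifiers in the count files. Both had an identifier, and both passed the filter on low counts in each main model. CYP17A1 (ENSSSCG00000010591), the steroid 17-alpha-hydroxylase of the Leydig cell, was carried along as the gene they are set against.

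The animals were Danish crossbred Duroc X Landrace/Yorkshire boars, killed when they weighed about 100 kg. The submitters sorted them by boar taint compounds into High AS and Low AS, where AS stands for androstenone and skatole. For the last 3 days some pigs had a feed with 15% chicory and the others had a control feed. The study's design text gives its purpose as the search for loci and genes associated with these compounds. The High AS group had 10 boars given control feed and 7 given chicory, the Low AS group had 7 of each, and 1 further boar, given chicory, had no AS label. Androstenone ran from 0.67 to 7.77 mg/kg in the High AS pigs and from 0 to 1.07 mg/kg in the Low AS pigs, so the concentrations of the groups overlapped. The 32 pigs came from 14 sows, and the sow was the same for up to 5 of them. Pigs within a group are numbered by accession order, and these numbers pair no animals.

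Leydig cells lie between the seminiferous tubules and make the androgens of the testis. Luteinizing hormone from the pituitary binds LHCGR, a receptor coupled to G proteins; cyclic AMP rises in the cell, and cholesterol is turned into steroids by enzymes that include CYP11A1 and CYP17A1. In boars the same cells also make androstenone, a pheromone that taints the meat. INSL3 is a peptide of the relaxin family that mature Leydig cells secrete; in the fetus it acts through the receptor RXFP2 to bring the testis down into the scrotum, and in adults it is used as a marker of Leydig cell number and maturity.

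The libraries held 1855174 to 20349500 counts in genes, with a median of 4061083. Library names split them into 24 plain libraries of 1855174 to 5993637 counts and 8 numbered libraries of 10585625 to 20349500 counts, and 6 of the 8 numbered ones came from High AS pigs. The 4 libraries of sequencing lane 7 were all numbered and all from High AS pigs. INSL3 had a median of 418 CPM, the counts scaled to a common library size, in the numbered libraries and 959 CPM in the plain ones, and LHCGR had 1.99 and 3.47 CPM. In edgeR's quasi-likelihood model with AS group, diet and library set, the numbered libraries were lower by a log2 fold of -1.55 for INSL3 (SE 0.36, adjusted p = 0.00182), -1.32 for LHCGR (SE 0.41, adjusted p = 0.0150) and -1.70 for CYP17A1 (SE 0.35, adjusted p = 0.000621). Of 13025 genes tested, 29.1% differed between the library sets at an adjusted p of 0.05, so the 2 members were among many. What the split stands for is not given in the sources used here. Library set was therefore a term in each main model, and values within each set are given for the correlations, the likeness and the AS and diet differences.

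INSL3 was read by many counts and differed widely from pig to pig. Its level ran from 70.1 to 2610 CPM over the 32 pigs, with a median of 792 and a mean of 933 ± 615 CPM (SD, n = 32), a 37.2-fold range. The lowest pig was Low AS control replicate 7, a numbered library, at 70.1 CPM (95% exact Poisson interval 66.1 to 74.3). The next lowest, High AS chicory replicate 6, had 216 CPM and came from the same sow. The highest was Low AS control replicate 5 at 2610 CPM (2557 to 2664), followed by High AS chicory replicate 3 at 2378 CPM and High AS control replicate 5 at 2252 CPM. Both extremes of INSL3 thus lay in the group of Low AS pigs on control feed. At 1131 to 14204 reads per pig, counting alone gives a coefficient of variation of about 1.80%, against 65.9% observed. Such intervals cover counting error only, since the reads carry no molecular identifiers.

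LHCGR was read by few counts and varied at least as much from pig to pig; CPM is not corrected for gene length, so the levels of the genes are not compared with each other. Its level ran from 0.261 to 18.3 CPM, with a median of 3.05 and a mean of 3.99 ± 3.56 CPM (SD, n = 32). The highest pig was again Low AS control replicate 5, at 18.3 CPM (64 reads, 95% exact Poisson interval 14.1 to 23.4), and the next, High AS control replicate 6, had 8.68 CPM (6.25 to 11.7). The lowest was Low AS chicory replicate 5, at 0.261 CPM from 1 read (0.00662 to 1.46). The number of LHCGR reads was between 1 and 70, with a median of 14.5. It was under 10 in 7 pigs, 6 of them Low AS and 1 High AS, all with plain libraries. Counting alone gives a coefficient of variation of 34.7%, against 89.2% observed, so a single pig's LHCGR level is imprecise where INSL3's is not.

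edgeR's biological coefficient of variation is the spread between pigs that counting does not account for. With only library set fitted, and AS group and diet not, this coefficient was 52.3% for INSL3 and 63.7% for LHCGR. That of CYP17A1 was 51.1%, and the median of 12597 genes was 28.2%. INSL3 exceeded 96.3% and LHCGR 98.4% of those genes, while genes of their own abundance had fitted trend values of 27.5% and 38.8%. The pigs therefore differed more in both genes than in most others. In whole testis RNA, fewer Leydig cells and less RNA per Leydig cell cannot be told apart.

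**Figure D1:**
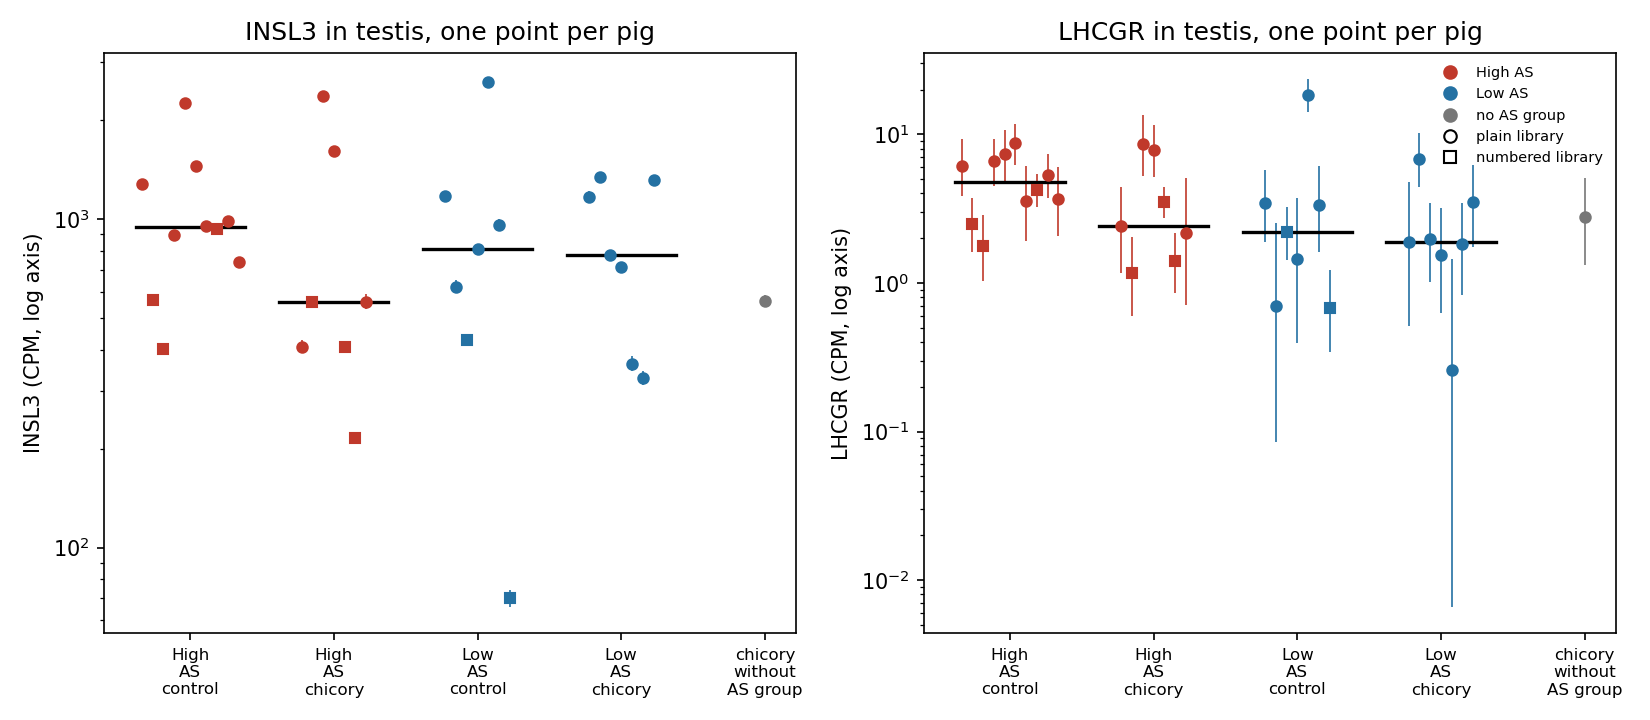
INSL3 (left) and LHCGR (right) in CPM on log axes, 1 point per pig, in the 4 groups and the pig without an AS group. Circles are plain and squares numbered libraries, vertical bars are 95% exact Poisson intervals of the count and horizontal bars are medians. The groups overlap for both genes, INSL3 from 70.1 to 2610 CPM and LHCGR from 0.261 to 18.3 CPM, and the bars are short for INSL3 and long for LHCGR.

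The ratio of the 2 transcripts was less wide than either level. There were 0.72 to 9.73 LHCGR reads per 1000 INSL3 reads, with a median of 4.47 over all pigs, 3.81 in plain and 4.82 in numbered libraries. The pig with the lowest INSL3, Low AS control replicate 7, had the highest ratio (9.73, 95% exact binomial interval 4.84 to 17.5, Clopper-Pearson). The pig highest in both genes, Low AS control replicate 5, had a ratio of 7.03 (5.41 to 8.98). The ratio in High AS pigs was 2.08 to 8.58 with a median of 4.77, and in Low AS pigs 0.72 to 9.73 with a median of 2.79. The ranges overlapped, and this difference was not tested. In RefSeq's Sscrofa11.1 annotation the span of LHCGR overlaps GTF2A1L, a transcription factor gene of germ cells, while INSL3 overlaps no gene and lies between JAK3 and B3GNT3. The kit keeps strand, but the strand setting of the counting is not given in the sources used here. Whether any reads of GTF2A1L were counted for LHCGR was not tested, and GTF2A1L was not analysed here.

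Pigs high in INSL3 were also high in LHCGR. Over 32 pigs, on log2 CPM with each library set centred on its mean, Pearson's r of INSL3 and LHCGR was 0.76 and Spearman's rho 0.78 (permutation p = 1e-05 for each, adjusted 4.2e-05 and 3.5e-05). A p of 1e-05 is the smallest that 100000 permutations can give, and p-values were adjusted over 21 correlations. Within the 24 plain libraries r was 0.80 and rho 0.82 (permutation p = 1e-05 for each, adjusted 4.2e-05 and 3.5e-05). With the 2 pigs whose INSL3 lay farthest from the median left out, r was 0.78 over all pigs and 0.78 within plain libraries. Within the 8 numbered libraries r was 0.78 (exact p = 0.0185, adjusted 0.0486) and rho 0.67 (exact p = 0.0831, adjusted 0.175). That relation rested on Low AS control replicate 7 and High AS control replicate 8, since without them r was 0.20 (exact p = 0.711, n = 6).

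Both genes varied together with CYP17A1, INSL3 with the higher r. For CYP17A1 and INSL3, r was 0.89 and rho 0.87 over 32 pigs (permutation p = 1e-05 for each, adjusted 4.2e-05 and 3.5e-05). It was 0.88 with rho 0.90 in the plain libraries, with the same p-values, and 0.91 in the numbered ones (exact p = 0.00201, adjusted 0.00603; rho 0.81, exact p = 0.0218, adjusted 0.0653). For CYP17A1 and LHCGR, r was 0.71 and rho 0.75 over 32 pigs (permutation p = 1e-05 for each, adjusted 4.2e-05 and 3.5e-05) and 0.78 with rho 0.81 in the plain libraries (permutation p = 2e-05 and 1e-05, adjusted 7e-05 and 3.5e-05). In the numbered libraries CYP17A1 and LHCGR had r = 0.62 and rho = 0.52 (exact p = 0.0965 and 0.197, adjusted 0.184 and 0.318). Leaving out the 2 pigs farthest from the median CYP17A1 level gave r = 0.84 for INSL3 and 0.72 for LHCGR over all pigs, and 0.84 for each in the plain libraries. In the numbered libraries the same step, which left out High AS control replicate 8 and Low AS control replicate 7, gave 0.57 for INSL3 and -0.36 for LHCGR (exact p = 0.261 and 0.496, n = 6). Without those pigs the r of LHCGR with CYP17A1 thus changed sign, and that of INSL3 was lower but still positive. With n = 6 neither value can tell whether a relation remained. The difference between the correlations of INSL3 and of LHCGR with CYP17A1 was not tested; counting error was 34.7% for LHCGR and 1.80% for INSL3.

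**Figure D2:**
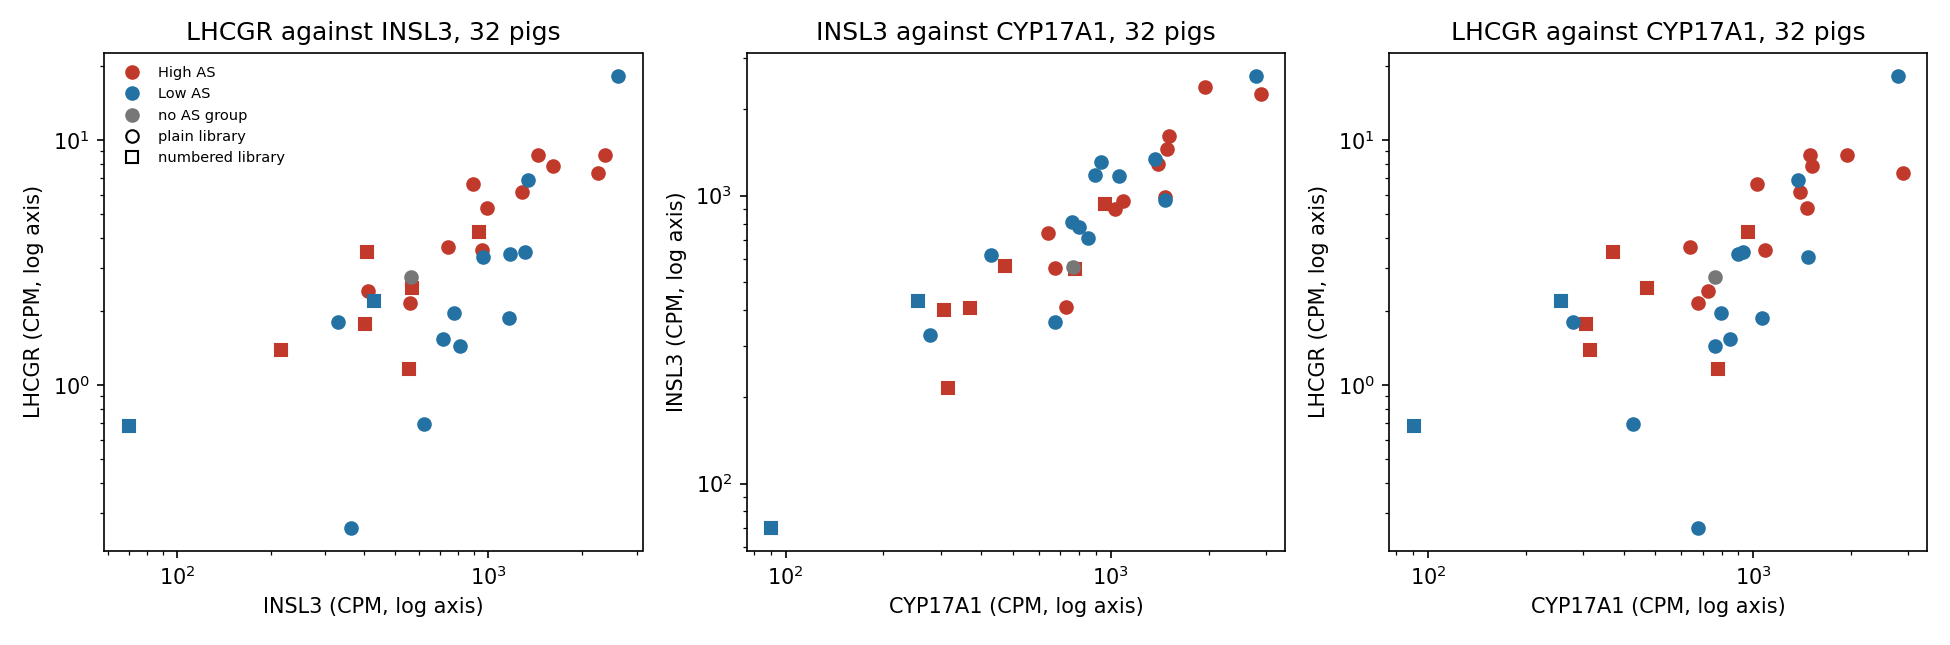
LHCGR against INSL3, INSL3 against CYP17A1 and LHCGR against CYP17A1 in 32 pigs, in CPM on log axes. Colours are AS groups, circles plain and squares numbered libraries. The points rise together in each panel, most closely for INSL3 and CYP17A1 (r = 0.89), and Low AS control replicate 7 lies alone at the low end of both CYP17A1 panels.

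The genes most like INSL3 across the 32 pigs were ranked among 8593 genes with a symbol by Pearson's r on the same centred scale. These values are a description; both genes of each pair come from the same 32 libraries. The first 8 were AGT, angiotensinogen (r = 0.91), A2M, the protease inhibitor alpha-2-macroglobulin (0.91), SULT1C3, a sulfotransferase (0.90), CYP17A1 (0.89), ATG4A, a protease of autophagy (0.89), CYP11A1, the side-chain cleavage enzyme that starts steroid synthesis (0.89), TMEM205, a membrane protein (0.88), and EPHX1, the microsomal epoxide hydrolase (0.88). Their r was between 0.87 and 0.91 in the plain libraries and between 0.87 and 0.97 in the numbered ones. Among the lowest were CORO1C, a coronin that binds actin (r = -0.65), and TCF12, a transcription factor (-0.63). INSL3's neighbour JAK3, a kinase of cytokine signalling, stood 49th at r = 0.72, and its other neighbour B3GNT3 had 0.08.

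For LHCGR the first 8 were MME, the endopeptidase neprilysin (r = 0.80), RDH11, a retinol dehydrogenase (0.79), CYP11A1 (0.77), PAPSS2, which makes the sulfate donor for sulfotransferases (0.77), ATG4A (0.76), SULT1C3 (0.76), FUCA1, a lysosomal fucosidase (0.75), and FAP, a serine protease (0.74). In the plain libraries their r was 0.74 to 0.82; in the numbered ones it was 0.36 for FUCA1, 0.56 for CYP11A1, 0.63 for SULT1C3 and 0.68 to 0.84 for the others. The lists of the 2 genes shared 3 members, SULT1C3, ATG4A and CYP11A1, which is 3 of 8 in each. The lowest for LHCGR were SGPP2, a sphingosine phosphate phosphatase (r = -0.64, but 0.04 in the numbered libraries), BICRAL, a subunit of a chromatin remodelling complex (-0.59), and GATAD2A, a subunit of the NuRD complex (-0.58). CYB5A, the cytochrome b5 that assists CYP17A1, had r = 0.78 with INSL3 and 0.73 with LHCGR. NR5A1, a nuclear receptor that drives steroidogenic genes, had 0.49 and 0.33. HSD17B3, which makes testosterone, had 0.24 and 0.20, so the other steroid genes did not all vary as closely with the members.

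The levels of the AS groups overlapped for both genes. INSL3 was 216 to 2378 CPM in High AS pigs (median 896, n = 17) and 70.1 to 2610 CPM in Low AS pigs (median 792, n = 14). LHCGR was 1.16 to 8.68 CPM in High AS pigs (median 3.67) and 0.261 to 18.3 CPM in Low AS pigs (median 1.92). The 2 highest levels of INSL3 and of LHCGR were each split between the groups, 1 Low AS and 1 High AS pig. With diet and library set in the model, the log2 fold of High AS against Low AS was 0.42 for INSL3 (SE 0.30, 95% interval -0.18 to 1.02, p = 0.165) and 0.64 for LHCGR (SE 0.36, -0.09 to 1.37, p = 0.0850). Neither passed, with an edgeR adjusted p of 0.988 for each, and the interval reaches from a small deficit to more than a doubling. CYP17A1 had 0.61 (SE 0.29, p = 0.0424, adjusted p = 0.988). Across 13025 genes edgeR called 0 (0%), as did limma voom and DESeq2, with 300 at an unadjusted p under 0.05 by edgeR. These p-values measure the spread between pigs and take no account of shared sows, which the fits within sows address.

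The size of the AS difference depended on how library set was handled and on single pigs. Without the library set term it was 0.09 for INSL3 and 0.36 for LHCGR. In plain libraries alone it was 0.23 (SE 0.31) and 0.49 (SE 0.42), and in the 8 numbered libraries alone 1.35 (SE 0.66) and 1.01 (SE 0.67). The difference between the sets was 0.95 (SE 0.73) for INSL3 and 0.57 (SE 0.90) for LHCGR in edgeR (adjusted p = 1 for each), a test in which 0% of 13771 genes were called and 224 had an unadjusted p under 0.05. Low AS control replicate 5, the pig highest in both genes, weighed most: without it LHCGR had 1.09 (SE 0.31, p = 0.00132, edgeR adjusted p = 0.999) and INSL3 0.60. INSL3 had its lowest values when High AS chicory replicate 3 (0.25) or Low AS control replicate 7 (0.26) was left out. With carcass weight as a covariate INSL3 had 0.23 and LHCGR 0.53. By limma voom LHCGR had 1.04 (SE 0.34, p = 0.00426, adjusted p = 0.993).

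**Figure D3:**
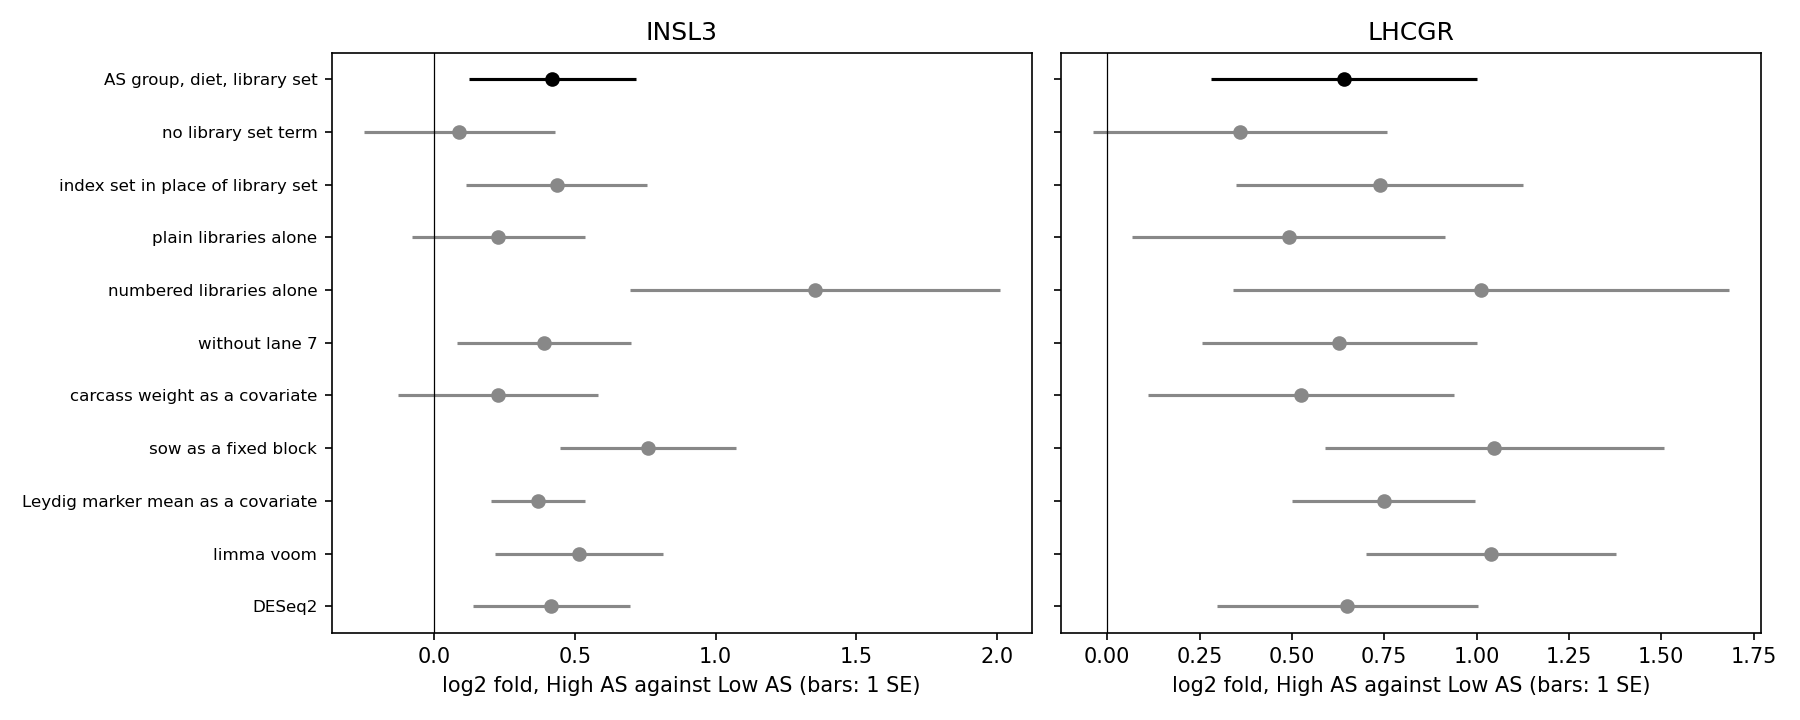
Log2 fold of High AS against Low AS for INSL3 (left) and LHCGR (right) under the main model, in black, and 10 alternatives, in grey; bars are 1 SE. Each point lies above 0, from 0.09 to 1.35 for INSL3 and from 0.36 to 1.05 for LHCGR.

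Within sows the High AS pigs had the higher levels more often. The comparison used 7 sows with pigs in both groups, 22 pigs, of which 11 were High AS and 11 Low AS. The labels give the sow but not the litter. Sow 931 had INSL3 of 1283 and 1609 CPM in its High AS pigs and 808 CPM in its Low AS pig, with LHCGR of 6.12 and 7.87 against 1.45 CPM, all in plain libraries. Sow 1109 had INSL3 of 216 CPM in the High AS pig and 70.1 CPM in the Low AS pig, with LHCGR of 1.40 against 0.682 CPM, both in numbered libraries. In sow 930 the High AS pig had 955 CPM of INSL3 and the Low AS pigs 1168 and 2610 CPM, while LHCGR was 3.57 against 1.88 and 18.3 CPM. Sow 210 had INSL3 of 2378, 408 and 401 CPM in its High AS pigs, the lower 2 in numbered libraries, and 963 and 775 CPM in its Low AS pigs. Sow 641 had 743 CPM and, in a numbered library, 557 CPM in its High AS pigs and 714 CPM in its Low AS pig. Without regard to library set, mean log2 INSL3 was thus lower in the High AS pigs of sows 210, 641 and 930 (differences of -0.24, -0.15 and -0.87). In sow 1014 the High AS pig had 934 CPM of INSL3 against 363 and 328 CPM. Its LHCGR was 4.21 against 0.261 and 1.82 CPM. The High AS library of this sow was numbered and its Low AS libraries were plain. Its High AS pig had control feed and its Low AS pigs had chicory, so AS group, diet and library set cannot be told apart there. Several LHCGR levels of Low AS pigs came from few reads. There were 1 and 9 in sow 1014, 4 in sow 931, 7 in sow 641 and 4 in 1 pig of sow 930.

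On log2 CPM centred on library set, INSL3 and LHCGR were each higher in the High AS pigs of 6 of 7 sows, all but sow 930. The mean difference within sows was 0.79 for INSL3 (two-sided exact permutation of AS labels within sows, 4860 assignments, p = 0.0296) and 1.05 for LHCGR (p = 0.0278). For CYP17A1 it was 0.74 (exact p = 0.0739). The permutation took no account of diet. These p-values are for single genes and are not adjusted for the genes of the table. They also depended on the centring: on values not centred, INSL3 had 0.39 (exact p = 0.323, higher in 4 of 7 sows) and LHCGR 0.84 (exact p = 0.0916, 6 of 7). Comparing only pigs of the same sow and the same library set left 15 pigs of 6 sows, with 0.53 for INSL3 (exact p = 0.199) and 0.88 for LHCGR (exact p = 0.116), each higher in 5 of 6 sows. Neither gene passed the threshold in these comparisons.

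A fit in edgeR had sow, AS group, diet and library set as terms. Its log2 fold within sows was 0.81 for INSL3 (SE 0.32, 95% interval 0.14 to 1.48, p = 0.0197). For LHCGR it was 1.09 (SE 0.47, 0.11 to 2.07, p = 0.0311), and each had an adjusted p of 0.98. Across 13500 genes 0% were called by edgeR, and none by limma voom or DESeq2; 333 had an unadjusted p under 0.05 by edgeR. Of all genes, 0.689% had a smaller p than INSL3 and 1.21% a smaller p than LHCGR. Leaving out sow 930 gave 1.04 and 1.5 (p = 0.00132 and 0.000561, adjusted p = 0.999 for each), and leaving out sow 1014 gave 0.52 and 0.82 (p = 0.0698 and 0.0801). The pigs of sow 930, and of no other sow, carry different breeding values of the sire in the labels. Those values differ only slightly, and their bearing on the folds was not tested.

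**Figure D4:**
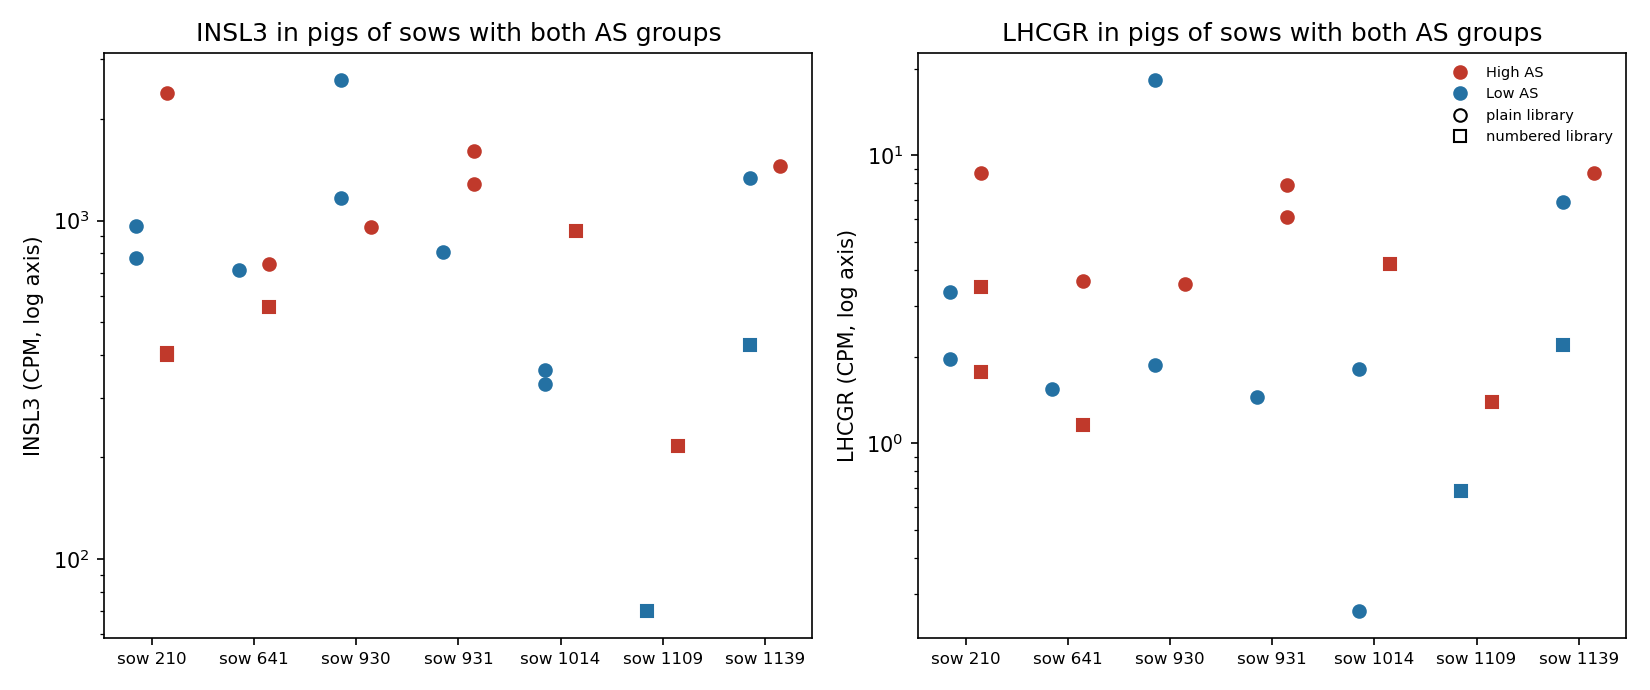
INSL3 (left) and LHCGR (right) in CPM on log axes in the 22 pigs of the 7 sows with both AS groups; within a sow Low AS pigs are drawn on the left and High AS pigs on the right. Circles are plain and squares numbered libraries. High AS pigs lie above Low AS pigs for both genes in sows 931, 1014, 1109 and 1139, and sow 930 holds the highest Low AS pig, at 2610 and 18.3 CPM.

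Chicory feed gave no difference that passed the test in either gene. INSL3 was 216 to 2378 CPM on chicory (median 563, n = 15 with the pig that has no AS group) and 70.1 to 2610 CPM on control feed (median 934, n = 17). LHCGR was 0.261 to 8.67 CPM on chicory (median 2.17) and 0.682 to 18.3 CPM on control feed (median 3.57). The feeds overlapped over most of the range. In the fit of 31 pigs, the log2 fold of chicory against control was -0.28 for INSL3 (SE 0.28, 95% interval -0.85 to 0.29), -0.56 for LHCGR (SE 0.35, -1.27 to 0.14, p = 0.113) and -0.25 for CYP17A1, each with an edgeR adjusted p of 1.00. Of 13025 genes 0.00768% were called, which is 1 gene and neither member. In plain libraries alone INSL3 had -0.27 (SE 0.31) and LHCGR -0.68 (SE 0.43), and in numbered libraries alone -0.69 (SE 0.56) and -0.48 (SE 0.57). Low AS control replicate 5 again weighed most, since without it INSL3 had -0.10 and LHCGR -0.20. With sow as a fixed block INSL3 turned to 0.10 and LHCGR had -0.13.

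Across the 4 groups the medians of INSL3 were 944 CPM in High AS control, 557 in High AS chicory, 808 in Low AS control and 775 in Low AS chicory pigs. For LHCGR they were 4.76, 2.42, 2.20 and 1.88 CPM. The High AS control group thus had the highest median of both genes, with ranges (401 to 2252 CPM for INSL3, 1.78 to 8.68 CPM for LHCGR) that lay across those of the other groups. Within control feed the AS difference was 0.38 (SE 0.39) for INSL3 and 0.36 (SE 0.46) for LHCGR, and within chicory 0.47 (SE 0.44) and 1.07 (SE 0.57, p = 0.0670, edgeR adjusted p = 0.724). The test of the difference between the feeds gave 0.09 (SE 0.57) for INSL3 and 0.71 (SE 0.72) for LHCGR, with edgeR adjusted p = 0.987 and 0.951. Within Low AS pigs the diet difference was -0.33 (SE 0.42) and -0.98 (SE 0.54). In each of these 4 tests edgeR called 0% of 13025 genes, with 165, 810, 473 and 345 at an unadjusted p under 0.05 in the order given; limma voom, run for the test between feeds, also called 0.

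Androstenone itself was related weakly to both genes. The pig with the highest concentration, High AS control replicate 10 at 7.77 mg/kg, had 743 CPM of INSL3 and 3.67 CPM of LHCGR, both near the middle of all pigs. High AS chicory replicate 3, at 5.9 mg/kg, was near the top for both, with 2378 and 8.67 CPM. The 4 Low AS pigs recorded at 0 mg/kg had INSL3 of 1176, 623, 328 and 1312 CPM and LHCGR of 3.45, 0.697, 1.82 and 3.48 CPM. The edgeR slope, the log2 difference for each doubling of (concentration + 0.5 mg/kg), was 0.21 for INSL3 (SE 0.14, 95% interval -0.07 to 0.50, adjusted p = 0.852), 0.27 for LHCGR (SE 0.19, -0.11 to 0.66, adjusted p = 0.856) and 0.30 for CYP17A1 (SE 0.15, adjusted p = 0.852). Of 13199 genes 0.0227% were called, 3 genes and neither member. Without High AS chicory replicate 3 the slope was 0.08 for INSL3 and 0.18 for LHCGR, and without the library set term 0.07 and 0.17. With sow as a fixed block it was 0.66 for INSL3 (SE 0.17, p = 0.00100) and 0.78 for LHCGR (SE 0.29, p = 0.0121), each with an edgeR adjusted p of 1.

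As a correlation over 31 pigs, androstenone had r = 0.29 and rho = 0.23 with INSL3 (permutation p = 0.108 and 0.221, adjusted 0.189 and 0.332) and r = 0.33 and rho = 0.35 with LHCGR (permutation p = 0.0772 and 0.0558, adjusted 0.162 and 0.130). Within the 23 plain libraries with a concentration, r was 0.24 for INSL3 and 0.38 for LHCGR, and rho 0.14 and 0.46 (for LHCGR permutation p = 0.0703 and 0.0295, adjusted 0.162 and 0.0774). In the 8 numbered libraries r was 0.46 and 0.05 (exact p = 0.251 and 0.903). Leaving out the 2 pigs farthest from the median concentration gave 0.29 and 0.30 over all pigs. None of these passed after adjustment over the 21 correlations.

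Carcass weight was known for 29 pigs, from 76.2 to 101.9 kg. The edgeR slope per 10 kg was 0.39 for INSL3 (SE 0.27, 95% interval -0.17 to 0.94), 0.26 for LHCGR (SE 0.35, -0.47 to 0.98) and 0.69 for CYP17A1 (SE 0.25, p = 0.0103), each with an adjusted p of 0.999. Of 13413 genes 0% were called by edgeR, limma voom or DESeq2, with 221 at an unadjusted p under 0.05 by edgeR. The lightest pig, Low AS chicory replicate 6 at 76.2 kg, had 328 CPM of INSL3, and the heaviest, High AS chicory replicate 2 at 101.9 kg, had 557 CPM. The LHCGR slope was 0.007 without Low AS control replicate 5, a pig of 96.1 kg, and 0.48 without the heaviest pig, and the INSL3 slope was 0.25 without the lightest pig. The correlation of carcass weight with INSL3 was r = 0.20 and rho = 0.08 (permutation p = 0.323 and 0.697, adjusted 0.377 and 0.732), and with LHCGR r = 0.09 and rho = 0.14 (permutation p = 0.633 and 0.483, adjusted 0.700 and 0.597). Within plain libraries r was 0.32 and 0.25, and within numbered libraries -0.02 and -0.51 (exact p = 0.946 and 0.200). The 2 pigs of most extreme weight were High AS chicory replicate 2 and Low AS chicory replicate 6. Without them r over all pigs was -0.000867 with INSL3 and 0.11 with LHCGR. The r of 0.20 with INSL3, which had not passed, was thus not kept. Within plain libraries the same step left out High AS control replicate 10 and Low AS chicory replicate 6, and r with INSL3 was 0.199.

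**Figure D5:**
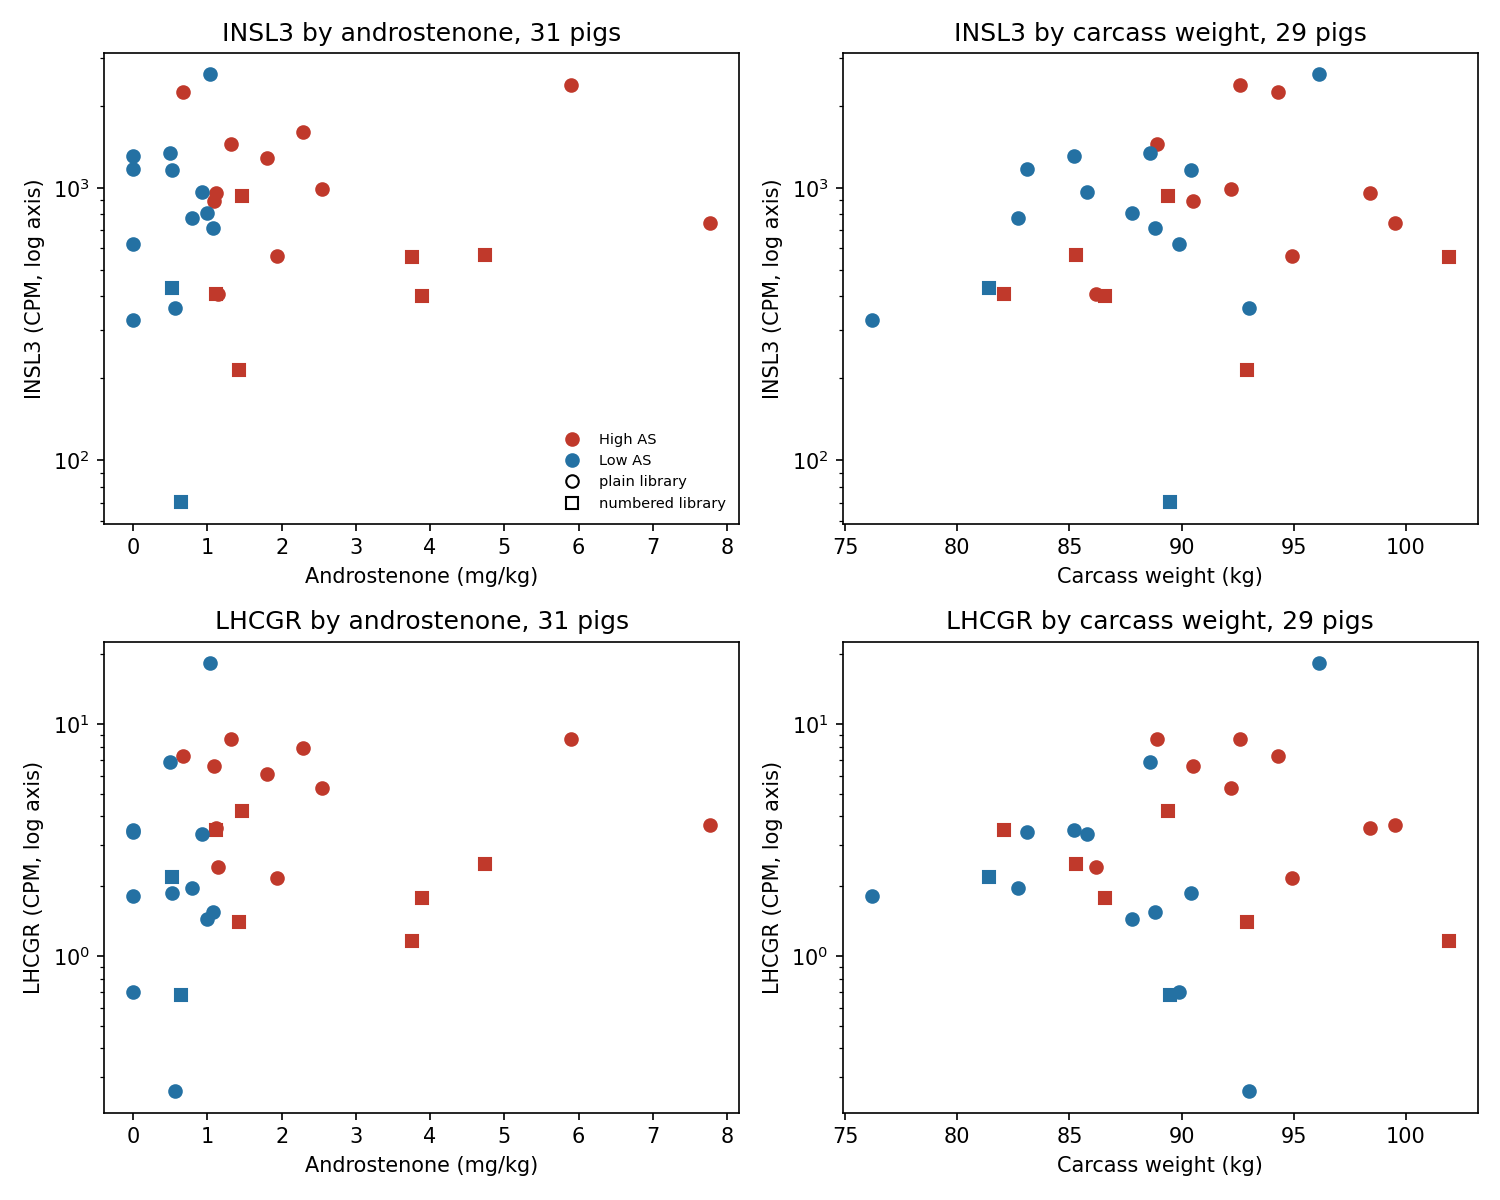
INSL3 (top) and LHCGR (bottom) in CPM on log axes against androstenone in 31 pigs (left, mg/kg) and carcass weight in 29 pigs (right, kg). Colours are AS groups, circles plain and squares numbered libraries. Pigs under 1.1 mg/kg span nearly the whole range of both genes, from 70.1 to 2610 CPM for INSL3.

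The sire's breeding value for androstenone, which took 12 distinct values over the 32 pigs, had slopes near 0. Per 0.1 unit the edgeR slope was -0.006 for INSL3 (SE 0.06, 95% interval -0.12 to 0.11, adjusted p = 0.975) and 0.005 for LHCGR (SE 0.07, -0.14 to 0.15, adjusted p = 0.982). In this comparison 0.0154% of 13009 genes were called, 2 genes and neither member, and 94.5% of genes had a smaller p than INSL3. Pigs of the same sire share the value, so these p-values are too small and the intervals too narrow. Among plain libraries the breeding value also differed by index set, which was not a term of this fit. The slopes were therefore not separated from index set.

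Around the receptor, a list of 54 genes of luteinizing hormone signalling (G proteins, adenylyl cyclases, protein kinase A, phosphodiesterases and their targets) had 35 genes tested in the AS comparison. Of these 22 were higher and 13 lower in High AS pigs, 0 passed, and the median log2 fold was 0.05, against 0.007 over all genes, of which 51.6% were higher. The 3 smallest p-values belonged to CRTC2, a coactivator of CREB (0.27, SE 0.14, edgeR adjusted p = 0.988), ATF1, a CREB relative (0.27, SE 0.15), and GNAI2, an inhibitory G protein subunit (-0.21, SE 0.14). Around the hormone, 2 of 9 relaxin family genes were tested, RLN3 (0.23, SE 0.22) and INSL6, a germ cell relative of INSL3 (0.05, SE 0.14). RXFP2, the receptor of INSL3, had at least 1 read in 13 of 32 pigs and at most 5 reads (0 to 0.523 CPM) and did not pass the filter. GNAS and NR4A1 had no identifier under those symbols and were not analysed here. Of 5 other hormone receptors tested, 3 were higher and 2 lower, with ESR1 (0.23, SE 0.27) and GHR (-0.16, SE 0.21) among those of smallest p.

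Among 24 regulators of Leydig cells tested, 8 were higher and 16 lower in High AS pigs, 0 passed, and the median was -0.09. The smallest p-values were those of NR0B1, a repressor of steroidogenic transcription (-0.34, SE 0.20), SP3 (-0.36, SE 0.23) and PDGFRA (-0.41, SE 0.27); NR5A1 had -0.06 (SE 0.27). Of 10 steroidogenic genes 6 were higher and 4 lower, 0 passed, with a median of 0.10. SRD5A1, a 5-alpha-reductase, had 0.54 (SE 0.21), CYB5R3 0.20 (SE 0.12), CYP11A1 0.42 (SE 0.27), CYB5A 0.14 (SE 0.21) and HSD17B3 -0.20 (SE 0.21). In the androstenone fit SRD5A1 was the only gene of these 5 lists that rose past the threshold (slope 0.44, SE 0.08, edgeR adjusted p = 0.0343). By diet, 13 of the 35 signalling genes were higher and 22 lower on chicory, where 51.9% of all genes were higher. By carcass weight 24 of 37 were higher and 13 lower, where 52.4% of all genes were higher. In both, 0 of the signalling genes were called. The smallest p-values were those of PDE8B by diet (-0.48, SE 0.21) and ATF1 by carcass weight (0.26 per 10 kg, SE 0.13). Within sows PDE4D, a phosphodiesterase of cyclic AMP, had the smallest p of the signalling genes (-0.49, SE 0.20, edgeR adjusted p = 0.98).

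The members were set against markers of the cell types a testis sample can hold, as the mean log2 CPM of each list. Of 16 Leydig markers listed (the members and CYP17A1 left out), 10 had an identifier. These 10 summed to 757 to 2636 CPM in High AS pigs (median 1418) and 650 to 3082 CPM in Low AS pigs (median 1212). Much of these sums was CYB5A, with a mean of 1038 CPM in High AS and 949 CPM in Low AS pigs. Of the 9 markers tested, 4 were higher and 5 lower in High AS pigs (median log2 fold -0.06, 0 called). The mean of the 9 tested ones had r = 0.82 with INSL3 (permutation p = 1e-05, adjusted 0.0002 over 20 correlations). With LHCGR it had r = 0.70 (permutation p = 3e-05, adjusted 0.0003). The rank correlations (Spearman) were 0.80 and 0.61, and r without the 2 farthest pigs was 0.78 and 0.57. Macrophage and immune markers, 3 genes tested, had r = 0.49 with INSL3 (rho 0.57, permutation p = 0.00357, adjusted 0.0238) and 0.42 with LHCGR (rho 0.42, permutation p = 0.0241, adjusted 0.118). The 6 genes of this list with an identifier summed to 30.7 to 85.0 CPM in High AS and 28.1 to 84.2 CPM in Low AS pigs. Sertoli, germ cell, peritubular, endothelial and blood lists did not pass after adjustment with either gene. Elongating spermatid markers had r = -0.26 with INSL3 and -0.17 with LHCGR. All 15 were higher in High AS pigs in sign (median log2 fold 0.21, 0 called), against 51.6% and a median of 0.007 over all genes. Their sums were 20020 to 67320 CPM in High AS (median 39910) and 3969 to 49650 CPM in Low AS pigs (median 37810). Low AS chicory replicate 1 had the lowest mean log2 CPM of these markers, 7.64, and the next lowest pig had 9.39. The part of these markers in the AS difference of the members was not tested.

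With the Leydig marker mean as a covariate, the AS log2 fold was 0.37 for INSL3 (SE 0.17, 95% interval 0.03 to 0.71, p = 0.0326) and 0.75 for LHCGR (SE 0.25, 0.25 to 1.25, p = 0.00467), each with an edgeR adjusted p of 0.722. The folds were close in size to those without the covariate, 0.42 and 0.64, and their standard errors were smaller (0.17 against 0.30, and 0.25 against 0.36). The epididymis list, 3 of 6 genes with an identifier, summed to at most 0.938 CPM in any pig with an AS group. Of these 3 genes, 1 had no read in any pig.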

How the data were processed

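Testis mRNA of 32 pigs was sequenced with a stranded TruSeq kit, per the labels' protocols. The deposited files hold whole-number counts per Ensembl gene, which the authors did not normalize; the submitters' processing notes name HTSeq 0.6.0 beside STAR, SAMtools 1.3.1, cutadapt 1.8.1 and Trimmomatic 0.33. Build, annotation and strand setting are not given in the sources used here. Of 25322 identifiers 11804 had a symbol. The 5 closing rows were left out; reads in no gene were 20.6% to 39.6%. The smallest chi-square per degree of freedom between libraries of a group was 7.24, so none were merged.

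Groups came from the labels. Models used edgeR 4.0.16 (filterByExpr, TMM, glmQLFTest, Benjamini-Hochberg at 0.05) in R 4.3.3 with library set as a term, and were tested on simulated data; limma 3.58.1 voom and DESeq2 1.42.0 were alternatives. Fits with carcass weight dropped the 3 pigs without one. log2 CPM used a prior count of 2. The genes, lists and tests were chosen with earlier results of these data known. Named were both members and CYP17A1, the 8 highest and 3 lowest r, list genes called or otherwise the 3 with the smallest p, and a few fixed genes; list genes of other comparisons are given by example. Single pigs and sows and some list genes were singled out after their values were seen. A few genes that this rule names are not reported here. Skatole was not used here.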

Additional observations from a re-analysis of the deposited data

How the results depend on the processing

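For INSL3 and LHCGR, each alternative of the AS, androstenone and within-sow fits kept the direction and an adjusted p above 0.05. The values that turned were the diet fold of INSL3 with sow as a fixed block (0.10), the carcass weight slope of LHCGR with the Leydig marker mean as a covariate (-0.10), the AS by diet difference of INSL3 by limma voom (-0.14) and without the library set term (-0.12), and r of carcass weight and INSL3 without the 2 farthest pigs (-0.000867). The cause was not tested. The within-sow permutation lost its call when values were not centred (0.39 for INSL3, 0.84 for LHCGR) and in pigs of the same sow and set (0.53 and 0.88); both were chosen after seeing the data, as was leaving out each sow. Counts over all genes moved as follows. The 1 diet call became 0 by limma voom, without the library set term, with sow as a random effect, in plain or numbered libraries alone and without lane 7, and was 0 to 1 with a pig left out. The 3 androstenone calls became 7 by DESeq2, 9 without the filter and 9 with the Leydig covariate. They became 0 without the library set term, with index set, sow block, carcass weight or rank of the concentration, and without pigs at 0 mg/kg; with a pig left out they were 1 to 4. The 0 within-sow calls became 1 without sow 1139. Of all alternatives 592 kept their result, 23 counts moved, 5 turned and 4 lost their call. Many of them were refits without a single pig. For the fits of the members, a kept result meant the same sign and the same side of an adjusted p of 0.05. No main fit of the members in this tally was under 0.05, so the tally does not show how far the folds moved. The labels give no replicate numbers, so pigs were matched by sow alone. Depth limits LHCGR most, at a median of 14.5 reads a pig.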
